A study of Mus musculus with 4 samples.

Results

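The genes of mitochondrial fusion, fission and axonal transport were examined by ribosome profiling of mouse dorsal root ganglia, which hold the cell bodies of the sensory neurons. Ribosome profiling sequences the stretches of message that ribosomes cover, so a gene's reads follow the number of ribosomes on its messages. The members are the 10 genes Mfn1, Mfn2, Opa1, Dnm1l, Fis1, Mff, Rhot1, Rhot2, Trak1 and Trak2, found by gene symbol among the 48431 genes of the deposited table. All 10 were present once, were annotated as protein coding and passed a minimum mean of 1 CPM (reads per 1000000 reads of a library), which 15279 genes passed. The 4 libraries form 1 group: wild-type male SW mice, treated intraperitoneally with methylglyoxal (MGO), a reactive by-product of glycolysis, at 2 mg/kg for 6 days. Age is not given in the labels, and the protocol text of the same samples speaks of saline, so the libraries are named by their treatment label alone. No control libraries were analysed here, so the values describe levels within treated ganglia and no effect of the treatment.

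Mitochondria in neurons are continually joined, divided and carried along the axon. Mfn1 and Mfn2 encode the mitofusins, outer membrane GTPases that fuse outer membranes, and Opa1 encodes the inner membrane GTPase that fuses inner membranes and shapes the cristae. Division is carried out by the dynamin-related GTPase encoded by Dnm1l, which is recruited from the cytosol by membrane receptors such as Mff, while Fis1 encodes a small outer membrane protein of the same pathway. Rhot1 and Rhot2 encode the Miro GTPases, which sit on the outer membrane, and Trak1 and Trak2 encode the adaptors that link Miro to kinesin and dynein. Sensory neurons have some of the longest axons of the body, and variants of human MFN2 cause an axonal form of Charcot-Marie-Tooth neuropathy.

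The stretch of message that a ribosome covers when it starts on each gene is shown to place the footprints in sequence. Each line gives 30 bases of a GENCODE M21 transcript in the 5′ to 3′ direction, from 12 bases before the annotated start codon. The start codon is in capitals, and transcripts annotated as principal were preferred.
Mfn1: tccaggtgcataATGgcagaaacggtatct
Mfn2: taaactggcgagATGtccctgctcttttct
Opa1: tgctctggcgggATGtggcgagcaggtcgg
Dnm1l: gtttcgggggtcATGgaggcgctgatcccg
Fis1: ggggcggcggccATGgaggccgtgctgaac
Mff: actgctgctgagATGgcagaaattagtcga
Rhot1: ggcgtgcgctccATGcgtgcgggccgagtg
Rhot2: cgggcagcagccATGcggcgcgatgttcgc
Trak1: ttgtgtctgcccATGgcattggcaattcag
Trak2: aaaggattctgcATGagtcaatcccagaat

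A purine at the third base before the start codon, the base known to matter most for recognition of a start, was present in 7 of the 10 genes (70%), against 87% of 13581 detected coding genes. Rhot1, Trak1 and Trak2 lacked it. A purine there together with G right after the start codon was present in 4 genes (Mfn1, Dnm1l, Fis1 and Mff), which is 40% against 45.4% of the detected coding genes. Upstream of the start, the leader of the Trak2 transcript held 9 ATG triplets in 392 bases, the most of the members, while those of Dnm1l (73 bases) and Rhot1 (164 bases) held 0. These starts and leaders are those of a single transcript per gene, and starts of other transcripts were not examined. For Opa1, Dnm1l, Mff and Rhot1 it is not the transcript whose coding length was used. Reads in leaders and in coding sequence were not separated in the table. The annotated proteins ranged from 152 residues for Fis1 to 978 for Opa1, so counts per gene were divided by coding length before genes were compared.

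The 4 libraries held 3487634, 2633870, 2610537 and 3753015 reads, and 3 reads, the most that a count of 0 allows, were worth 0.799 to 1.15 CPM. Replicates 1 and 2 differed by little more than sampling noise (chi-square per degree of freedom 1.03), as did replicates 3 and 4 (1.05), against 3.34 to 4.10 across these 2 pairs. A mean ± SD is accordingly taken over the 2 pair means (n = 2), with each pair entering once as a single sample. Nothing in the labels says that the replicates came from separate animals, so this spread may be technical. Where the 2 pair means lie close by coincidence, the SD falls below the spread of the 4 libraries. For Mfn1 it was 0.151 CPM per kb, against 0.991 over the 4 libraries. A small SD here is therefore no measure of precision. Markers of the ganglion's cells were present: all 10 sensory neuron markers were detected and were led per kb of coding length by the neurofilament gene Nefl (1975 ± 13.6 CPM per kb) and by Uchl1 (1521 ± 19.6). In a bulk tissue, fewer cells of a type and less RNA per cell cannot be told apart.

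Summed by role, the fission genes stood highest per kb of coding length, and the adaptors of transport were the lowest single genes. The order of mean levels was Dnm1l, Mff, Mfn2, Fis1, Opa1, Rhot1, Mfn1, Rhot2, Trak1 and Trak2, from 80.4 ± 5.58 CPM per kb for Dnm1l to 6.45 ± 0.512 for Trak2. Neighbours in this order kept apart in all 4 libraries except Mfn2 and Fis1, where Mfn2 was higher in 2 of 4. The ranges of Rhot2 and Trak1 overlapped, although Rhot2 was the higher of this pair in each library. The length of a gene is the same in every library, so this agreement does not bear on the choice of length. With the median instead of the longest coding sequence, Mff (89.3) lay above Dnm1l (87.8) and Rhot2 (42.8) above Opa1 (42.3). Over the union of exons Mff (6.28) lay below Rhot1 (7.42). Summed over members, the 3 fission genes reached 196 ± 3.13 CPM per kb, the 3 fusion genes 111 ± 0.840 and the 4 transport genes 53.2 ± 0.900. The lead of fission rests on division by length: in CPM the fusion genes summed to 278 ± 2.18 and the fission genes to 257 ± 13, with fusion higher in replicates 1 to 3 and the values at 270 and 271 in replicate 4. The 10 genes together took 655 ± 9.61 CPM, with 655, 641, 662 and 662 CPM in replicates 1 to 4, so their sum hardly moved between libraries.

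**Figure D1:**
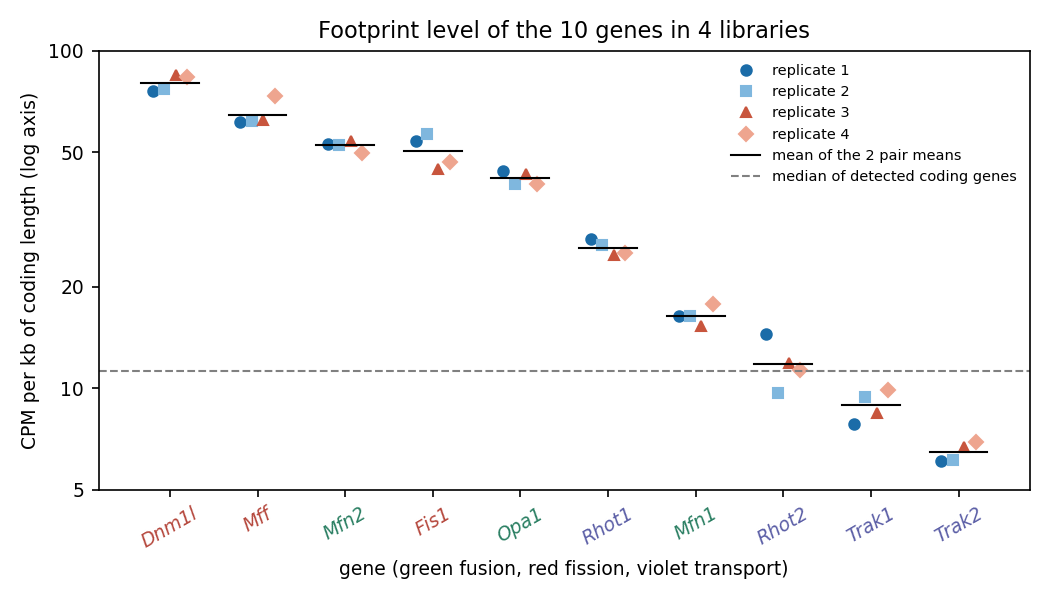
Level of each gene in CPM per kb of coding length (log axis) in the 4 libraries (points), with the mean of the 2 pair means (bar) and the median of the detected coding genes, 11.2 CPM per kb (dashed line). Dnm1l, Mff, Mfn2, Fis1 and Opa1 lie between 40.2 and 84.9, and Trak1 and Trak2 lie below the dashed line in every library.

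Dnm1l (ENSMUSG00000022789.14; GRCm38 chromosome 16, 16312230 to 16358959, minus strand), the division GTPase, had the most reads of the members, 2155 over the 4 libraries. It stood at 163, 165, 182 and 180 CPM in replicates 1 to 4. Both libraries of the second pair lay above both of the first, by a factor of 1.10 whose counting interval ran from 1.01 to 1.20 (exact binomial, 95%). This interval is not adjusted for the 10 genes examined, and Dnm1l was not called between libraries (chi-square test, adjusted p = 0.488). Its coding sequence of 2148 bases shared 358 of 2121 windows of 28 bases (16.9%), 28 being the shortest footprint selected, with the processed pseudogene Gm13719. That pseudogene was listed at 0 in 3 libraries and at 2 reads in replicate 4. On the opposite strand, Gm49521, whose exons overlap those of Dnm1l, shared 75 windows, and whether strand was used in counting is not given. Per kb, Dnm1l was at the 90.4th percentile of the 13787 detected protein-coding genes encoded in the nucleus.

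Mff (ENSMUSG00000026150.14; chromosome 1, 82724890 to 82752394, plus strand), the main receptor of the division GTPase, stood at 58.2, 58.5, 59.0 and 69.5 CPM. Replicate 4 stood apart from 3 libraries that lay within 1 CPM of each other. Per kb of its 948 coding bases the level was 64.7 ± 4.42 CPM. Fis1 (ENSMUSG00000019054.13; chromosome 5, 136953275 to 136966234, plus strand) showed 24.7, 25.8, 20.3 and 21.3 CPM, from only 287 reads in all. Its first pair lay above its second, but the ratio of the second to the first, 0.831, had a counting interval of 0.654 to 1.05 that includes 1. With 456 coding bases, Fis1 stood at 50.5 ± 6.87 CPM per kb and took the fourth place in the order per kb.

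Among the fusion genes, Mfn2 (ENSMUSG00000029020.13; chromosome 4, 147873599 to 147904704, minus strand) stood at 120, 120, 123 and 113 CPM. Opa1 (ENSMUSG00000038084.16; chromosome 16, 29579334 to 29654884, plus strand) stood at 129, 118, 126 and 118 CPM. These 2 genes overlapped in CPM, with no order of the pairs of libraries in either. Mfn1 (ENSMUSG00000027668.13; chromosome 3, 32529465 to 32579239, plus strand) was far lower at 36.1, 36.4, 34.1 and 39.4 CPM, and its 4 values lay apart from those of Mfn2 and Opa1. Per kb of coding length the means were 52.4 ± 0.591 for Mfn2, 41.9 ± 0.401 for Opa1 and 16.4 ± 0.151 for Mfn1, the 85.0th, 81.4th and 60.5th percentiles of detected coding genes.

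Of the transport genes, Rhot1 (ENSMUSG00000017686.16; chromosome 11, 80209019 to 80267907, plus strand), a Miro GTPase gene, was highest at 58.2, 56.2, 52.5 and 53.3 CPM. Trak1 (ENSMUSG00000032536.10; chromosome 9, 121297502 to 121474918, plus strand) showed 22.1, 26.6, 23.7 and 27.7 CPM. Trak2 (ENSMUSG00000026028.12; chromosome 1, 58900449 to 58973430, minus strand) showed 16.6, 16.7, 18.4 and 18.9 CPM. Both adaptor genes varied by less than their counting error, with coefficients of variation of 10.3% and 6.61% against 11.5% and 13.6% from sampling alone. Per kb, Rhot1 stood at 26.1 ± 1.44, Trak1 at 8.88 ± 0.352 and Trak2 at 6.45 ± 0.512 CPM.

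Rhot2 (ENSMUSG00000025733.17; chromosome 17, 25838457 to 25844851, minus strand), the second Miro gene, was the one member whose values were not whole reads. It stood at 27.0, 17.9, 22.2 and 21 CPM, equal to 94.1, 47.2, 58.0 and 78.9 reads, with replicate 1 highest and replicate 2 lowest. Of its 1833 coding windows of 28 bases, 1201 (65.5%) also occur in Gm20683, an annotated gene on the same strand whose exons overlap those of Rhot2. Exons of Wdr90 overlap those of Rhot2 on the same strand as well. Gm20683 stood at 3.69, 7.51, 6.91 and 5.18 CPM, lowest where Rhot2 was highest and highest where Rhot2 was lowest. Added together, the 2 genes gave 107, 67.0 and 76.0 reads in replicates 1 to 3, each within 0.005 of a whole number, and 98.4 in replicate 4. The sum was 30.7, 25.4, 29.1 and 26.2 CPM, with a coefficient of variation of 8.82% against 17.1% for Rhot2 alone. The level of Rhot2, 11.8 ± 0.321 CPM per kb, is therefore uncertain by the reads listed under Gm20683.

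Paralogs were unequal in these ganglia: Mfn2 exceeded Mfn1, Rhot1 exceeded Rhot2 and Trak1 exceeded Trak2 per kb in each library, although the order within the last 2 pairs turned under another choice of gene length. The 12 differences compared were chosen with earlier results of these data known, so their signs are a description. They were taken within libraries on the scale of log2(CPM per kb of coding length + 0.1). All 12 had 1 sign in all 4 libraries, which is the most extreme outcome 4 libraries can give. In an exact permutation test that flips the signs of the libraries, two-sided, it corresponds to 2 of 16 sign assignments, also after Benjamini-Hochberg adjustment over the 12, so none could pass 0.05. With each pair as 1 sample the smallest p of that exact test would be 0.5. Read ratios below carry exact binomial 95% intervals from the reads of all 4 libraries, which cover counting error only.

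Mfn2 lay above Mfn1 by 1.67 ± 0.0277 on the log2 scale, with 1.70, 1.68, 1.81 and 1.48 in replicates 1 to 4. Its level per kb was 3.15 times that of Mfn1 (interval 2.84 to 3.51), and Mfn2 held 76.1% ± 0.394 of the pair's reads per kb. Opa1 lay above Mfn1 by 1.35 ± 0.0238. It differed from Mfn2 by -0.32 ± 0.00389, with -0.26, -0.39, -0.33 and -0.31 in replicates 1 to 4. The sign of Opa1 minus Mfn2 turned to 0.05 without division by length, so the order of these 2 rests on coding length. With the median instead of the longest coding sequence, Mfn2 minus Mfn1 was 0.61 and Opa1 minus Mfn1 was 0.15.

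Between the Miro genes, Rhot1 minus Rhot2 was 0.92, 1.46, 1.05 and 1.15 in replicates 1 to 4, a mean of 1.14 ± 0.0613. The ratio per kb was 2.18 (interval 1.89 to 2.51), and Rhot1 held 68.9% ± 0.815 of the pair's reads per kb. With the reads of Gm20683 added to Rhot2 the difference was 0.80, and with the median annotated coding length, which is 515 bases for Rhot2, it turned to -0.58. Trak1 exceeded Trak2 by 0.45 ± 0.0550, a ratio of 1.38 (interval 1.16 to 1.64), and held 57.9% ± 0.941 of the adaptor reads per kb. Over the union of exons the sign turned to -0.31, and with the median coding length the difference was 1.27. Rhot1 exceeded Trak1 by 1.55 ± 0.137, and by 0.41 with the median coding length.

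In the division pathway the GTPase gene exceeded both of its partners per kb of the longest coding sequence, and Mff only narrowly. Dnm1l minus Mff was 0.31, 0.32, 0.45 and 0.19 in replicates 1 to 4, and the ratio per kb was 1.23 (interval 1.13 to 1.34). Dnm1l exceeded Fis1 by 0.67 ± 0.297, with 0.49 and 0.44 in the first pair and 0.93 and 0.84 in the second. Mff exceeded Fis1 by 0.36 ± 0.292, with 0.18 and 0.12 against 0.48 and 0.65, so both differences from Fis1 were larger in the second pair. The main division GTPase also exceeded the inner membrane fusion GTPase: Opa1 minus Dnm1l was -0.94 ± 0.113. Dnm1l minus Mff turned to -0.02 with the median coding length and was 2.38 over the union of exons, where Mff minus Fis1 turned to -1.08.

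Mief1 and Mief2, which encode 2 further receptors of the division GTPase, were compared with Mff. Mief1 stood at 10.9, 9.87, 10.3 and 11.5 CPM and Mief2 at 8.89, 8.35, 8.43 and 8.26. Both lay below every member in CPM in these libraries, but not per kb of coding length. Per kb, Mief1 (7.66 ± 0.263) lay above Trak2 (6.45 ± 0.512) in each library, and Mief2 stood at 6.23 ± 0.144. Mff exceeded Mief1 by 3.06 ± 0.0464 on the log2 scale per kb, a ratio of 8.44 (interval 7.02 to 10.2). Mief1 and Mief2 differed by 0.29 ± 0.0812, a ratio of 1.24 whose interval of 0.954 to 1.61 includes 1, and over the union of exons the sign turned to -1.19. The human MIEF1 message is known to carry a translated upstream reading frame, and reads in untranslated regions were not separated here. Exons of Mief1 overlap those of AC140267.1 on the same strand, and exons of Mff those of C430014B12Rik on the opposite strand. Mief1 and Mff each shared 0 coding windows of 28 bases with another gene.

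**Figure D2:**
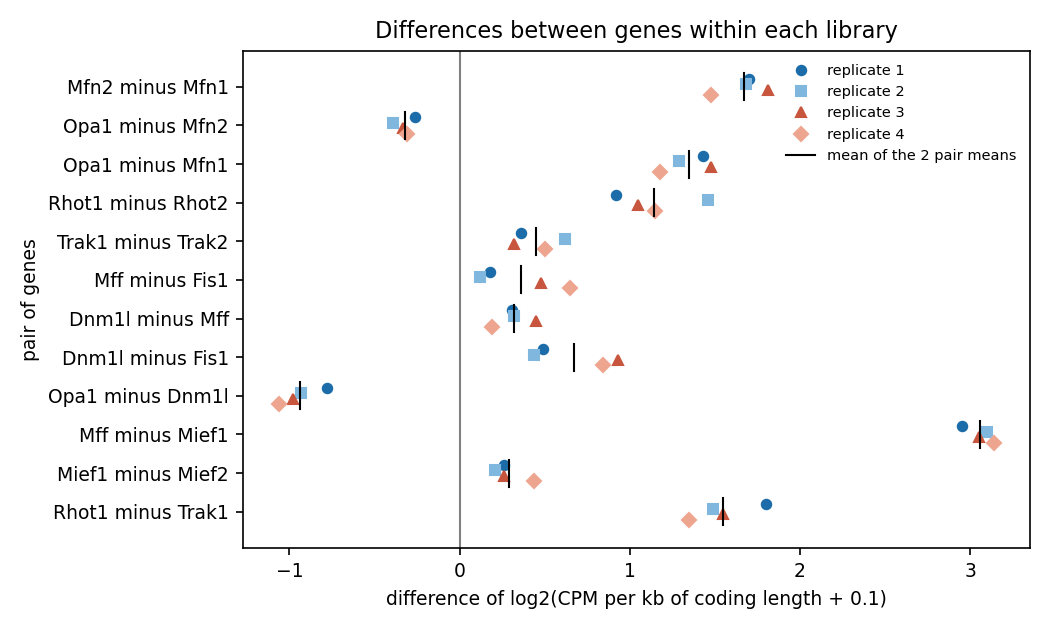
Differences between 2 genes within each library (points) on the scale of log2(CPM per kb of coding length + 0.1), with the mean of the 2 pair means (bar) and 0 as a grey line. Each of the 12 differences has 1 sign in all 4 libraries, from 3.06 for Mff minus Mief1 to -0.94 for Opa1 minus Dnm1l, and 6 of the 12 turn sign under another choice of gene length.

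For none of the 10 genes was a difference between the 4 libraries beyond the sampling of reads called. The reads of each gene were tested against equal shares of the library totals by a chi-square test with Benjamini-Hochberg adjustment over the 15279 genes above the minimum. Of all these genes 7.68% were called at 0.05, and 0 of the 10 members. At an unadjusted p under 0.05 the count was also 0 of 10, against 18% of all genes. The smallest adjusted p among the members was 0.418, for Rhot2, followed by 0.488 for Dnm1l and 0.494 for Mff. The share of coding genes called grew with depth, from 3.19% of those with 100 to 300 reads to 19.6% of those with 1000 to 3000, and the members had 221 to 2155. For the 3 deepest members, Dnm1l, Opa1 and Mfn2, the ratio of the second to the first pair was 1.10, 0.975 and 0.976, and for the last 2 its interval was 0.881 to 1.08.

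**Figure D3:**
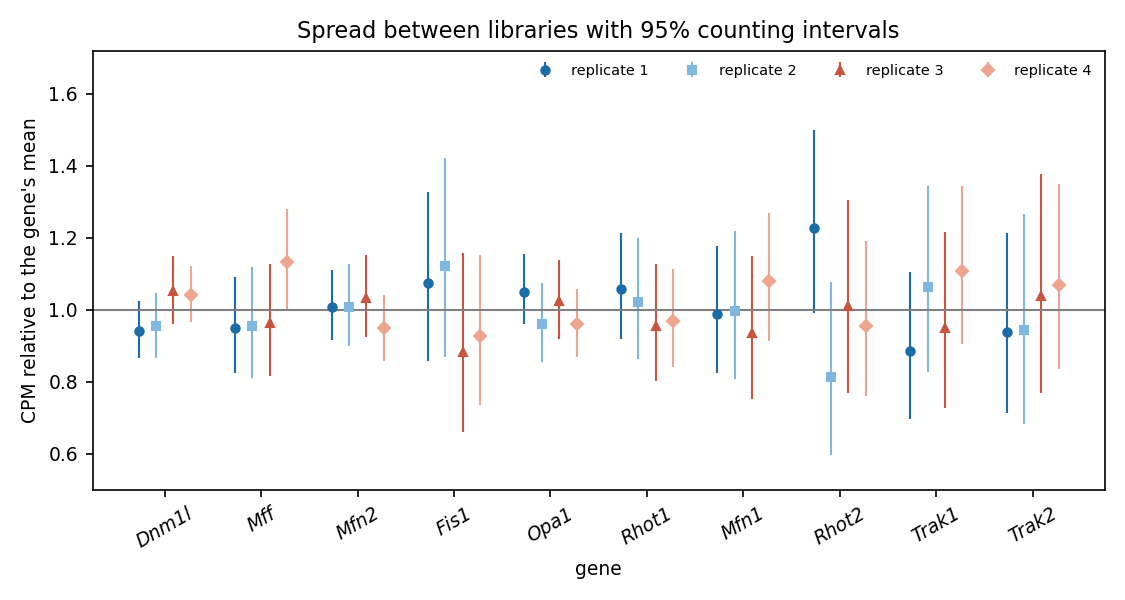
CPM of each gene in each library divided by the gene's mean, with exact binomial 95% intervals of the reads (bars). The intervals of the 4 libraries overlap for every gene, and the widest scatter is that of Rhot2, from 17.9 to 27.0 CPM.

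Markers of some cell types moved with the pairs of libraries. Counts of called markers here and below stand beside 7.68% of all genes and 45.9% of coding genes with at least 3000 reads. The 10 skeletal muscle markers summed to 4635 and 4691 CPM in the first pair and 2837 and 2869 in the second, led per kb by Acta1 (526 ± 191) and Tnnt3 (191 ± 52.5), and 10 of 10 were called. The 6 adipocyte markers, of which 5 were detected (Lep was not) and 3 called, summed to 308, 312, 208 and 211 CPM, with Fabp4 (208 ± 75.3 CPM per kb) and Cfd (121 ± 28.1) highest. The sum of the 7 myelinating Schwann cell markers used went in the opposite direction, at 10273, 10365, 11720 and 11760 CPM. Pmp22 (15591 ± 2328 CPM per kb) and Mbp (2913 ± 152) led per kb. Pmp22 alone stood at 6650, 6738, 8246 and 8302 CPM, while the list's median on the log2 scale was 7.79, 7.82, 7.76 and 7.77. Of these 7 markers 4 were called, and of the called ones Mbp alone was lower in the second pair (ratio 0.929). The markers not called were all lower there as well. The 6 fibroblast markers, led by Dcn (3195 ± 77.3) and Col1a1 (2053 ± 199), summed to 21585 and 21638 in the first pair. In the second they summed to 23910 and 23791, with 4 of 6 called. Of the called ones the collagen genes Col1a1 (ratio 1.15), Col1a2 (1.09) and Col3a1 (1.2) were higher in the second pair, and Dcn lower (0.966). The higher Dnm1l and lower Fis1 values of the second pair were not called (chi-square test, adjusted p = 0.488 and 0.763). The part of these cells in those values was not tested.

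The other 5 marker lists held called genes in 4 cases. Sensory neuron markers summed to 8659, 8721, 9045 and 9066 CPM, with 2 of 10 called (Scn10a and Tac1), and satellite glia markers, led by Apoe (7166 ± 58.2 CPM per kb) and Fabp7 (248 ± 7.14), to 7445, 7485, 7660 and 7587, with 3 of 6 called. Apoe made up 6686 of the mean satellite glia sum of 7544 CPM, and the 3 called markers moved in both directions, with ratios of the second to the first pair of 1.29 for Ednrb, 1.29 for Cdh19 and 0.833 for Glul. Endothelial markers, led by Cdh5 (53.5 ± 1.03) and Cldn5 (30.3 ± 3.80), summed to 300 to 307 CPM with 0 of 6 called. Macrophage markers, led by C1qa (104 ± 13.4) and C1qb (90.5 ± 13.6), summed to 562, 595, 519 and 518 with 1 of 7 called, and red blood cell markers, led by Hba-a1 (620 ± 84.2) and Hbb-bs (204 ± 22.5), to 453, 440, 357 and 381 with 1 of 4 detected called and Hba-a2 under the minimum. The summed level of the 10 mitochondrial genes stayed within 641 to 662 CPM over the same libraries.

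**Figure D4:**
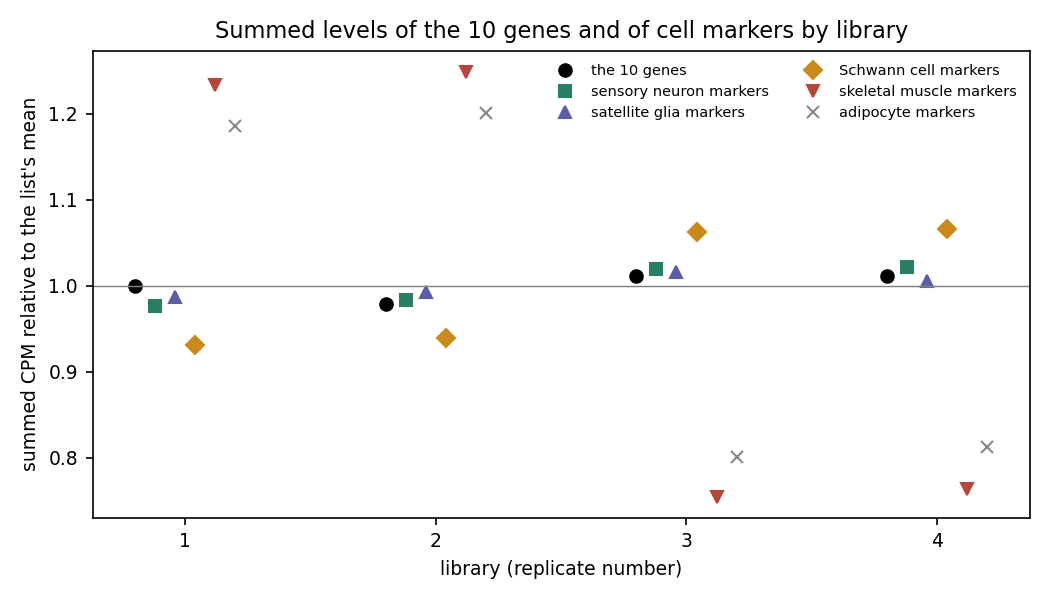
Summed CPM of the 10 genes and of marker lists in each library, divided by the list's mean over the 4 libraries. Skeletal muscle markers stand at 4635 and 4691 CPM in replicates 1 and 2 and at 2837 and 2869 in replicates 3 and 4, while the 10 genes stay between 641 and 662.

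Set beside other genes of mitochondrial upkeep, the members lay within a wider range of levels, from 0.477 CPM per kb for Disc1 to 405 for Sqstm1. Their median was 5.05 ± 0.05 on the scale of log2(CPM per kb + 0.1), against 3.50 ± 0.02 for all 13787 detected coding genes, and 8 of 10 members had means above the 11.2 CPM per kb that is the median of those genes. The list of 27 fusion and cristae regulators had 26 detected genes and a median of 4.52 ± 0.09. Minos1, a small subunit of the complex that holds cristae junctions, stood highest at 157 ± 18.7 CPM per kb, followed by Immt, the core subunit of that complex, at 65.6 ± 8.15 and the outer membrane carrier gene Mtch2 at 65.3 ± 1.78. Lowest among the detected were the protease genes Spg7 (9.36 ± 0.280) and Oma1 (5.91 ± 0.161), the second of which cleaves the Opa1 product under stress. In this list 1 of 26 genes was called between libraries, 3.85% against 7.68% of all genes. It was Immt, at 168, 156, 140 and 132 CPM (chi-square test, adjusted p = 0.00789). Pld6, a mitochondrial phospholipase gene, was below the minimum at 0.357 CPM.

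The 23 fission regulators had 22 detected genes and a median of 4.52 ± 0.07, with 0 of 22 called, against 7.68% of all genes. Dnm1l and Mff were its 2 highest genes per kb of the longest coding sequence. Cdk5, a neuronal kinase gene, came next at 50.7 ± 0.276 CPM per kb, beside 50.5 ± 6.87 for Fis1. The place of Mff rests on that length: at 61.3 CPM it was not among the 2 highest without division by length. Over the union of exons Mff (6.28 CPM per kb) lay below Fis1 (13.4). The lowest detected were Cdk1, the mitotic kinase gene, at 5.81 ± 3.04 and Mtfr1 at 3.66 ± 0.506, and Mtfr2 was below the minimum at 0.233 CPM. The list of 28 mitophagy and quality control genes had 27 detected genes and a median of 4.90 ± 0.10, with 0 of 27 called, against the same 7.68%. It was led by the autophagy receptor genes Sqstm1 (405 ± 18.6 CPM per kb) and Tax1bp1 (87.6 ± 3.91) and by the kinase gene Pink1 (76.3 ± 7.16). Park2, the ubiquitin ligase gene that acts with Pink1, was the lowest detected at 3.33 ± 0.420, after Atad3a (7.77 ± 1.15), and Calcoco2 was below the minimum at 0.832 CPM.

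Several motor genes stood far above the Miro and adaptor genes. The list of 31 genes of mitochondrial transport and anchoring had 30 detected genes and a median of 5.05 ± 0.08. The kinesin light chain gene Klc1 stood at 320 ± 38.9 CPM per kb, the dynein heavy chain gene Dync1h1 at 242 ± 24.8 and the neuronal kinesin heavy chain gene Kif5a at 225 ± 4.22. Rhot1, Rhot2, Trak1 and Trak2 lay below these 3 motor genes and below the list's median of 33.2 CPM per kb. With the median instead of the longest coding sequence, Rhot2 (42.8) lay above the list's median, then 5.20 on the log2 scale. Rhot1 (28.4), Trak1 (21.4) and Trak2 (8.76) stayed below it. The lowest detected were Myo19, a mitochondrial myosin gene, at 0.584 ± 0.247 and Disc1 at 0.477 ± 0.274, and Mgarp was below the minimum at 0.0958 CPM. In this list 6 of 30 genes were called between libraries, 20% against 7.68% of all genes: Klc1, Dync1h1, Kif1b, Dctn1, Kif5c and Ranbp2. The second pair stood lower than the first in 5 of them, by ratios of 0.838 to 0.883, and higher in Kif1b, by 1.08. Of coding genes with at least 3000 reads 45.9% were called.

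Genes of outer membrane import and porins, all 16 detected, had a median of 5.46 ± 0.17, the highest of the 5 lists per kb of coding length but the lowest without division by length (4.24, against 4.62 to 6.22). The porin genes Vdac1 (231 ± 14.6 CPM per kb) and Vdac2 (145 ± 1.90) led, with the iron-sulfur protein gene Cisd1 at 128 ± 12.5, and Bak1 (10.4 ± 1.11) and Tomm40l (5.56 ± 0.740) were lowest. In this list 1 of 16 genes was called, 6.25% against 7.68% of all genes. It was Tspo, at 49.3, 44.4, 27.6 and 36.5 CPM (chi-square test, adjusted p = 0.00356). Windows shared between genes were looked for in the 10 members, Mief1 and Mief2 only. All lists were drawn up with earlier results of these libraries known, so their medians are a description.

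**Figure D5:**
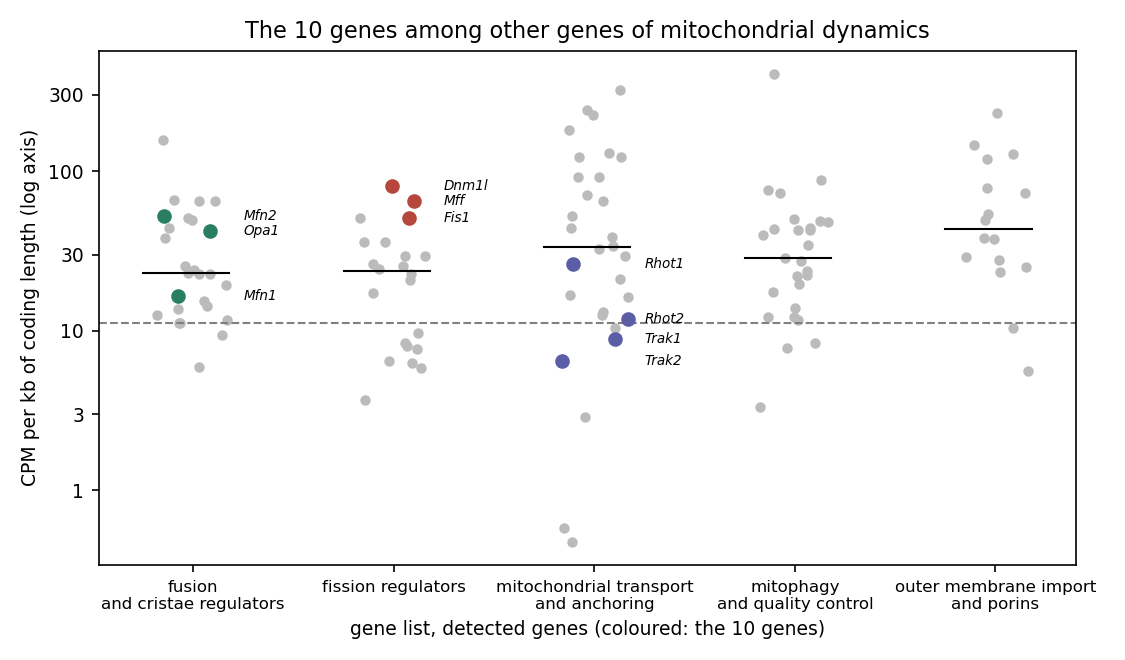
Mean CPM per kb of coding length (log axis) of the detected genes of 5 lists (grey) with the 10 genes in colour (green fusion, red fission, violet transport), list medians as bars and the median of detected coding genes, 11.2, as a dashed line. Per kb of the longest coding sequence, Dnm1l and Mff are the 2 highest genes of the fission list. On the same scale Rhot1, Rhot2, Trak1 and Trak2 lie below the bar of theirs. The places of Mff and Rhot2 change under another choice of gene length.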

How the data were processed

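Ribosome footprints of 28 to 34 nt were selected on 15% gels after column isolation of ribosome-bound RNA and rRNA depletion, per the labels' protocols. The submitters' processing notes name the aligners Bowtie2 2.2.9 and TopHat2 2.1.1, Cufflinks 2.2.1 and, for read quality, FastQC 0.11.5, with the build GRCm38. No source used here gives the annotation, the counting rule or whether strand was used. The authors' deposited columns are named TPM but hold CPM: they sum to 1000000, and 96.5% to 97.0% of the values above 0 are whole multiples, within 0.02, of 1 step per library, which gave the reads. Libraries of RNA abundance were not analysed here, so translational efficiency was not computed. No count model was run; reads for the chi-square test were taken from these steps.

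CPM were divided by the longest complete coding sequence in GENCODE M21 (GRCm38), which takes all reads to be coding. Pseudocount 0.1, minimum mean 1 CPM, threshold 0.05. Tests were the exact sign-flip permutation test within libraries and a chi-square test over libraries. The chi-square test was tried on simulated reads, and the sign-flip test only on a fixed set of values of 1 sign. Intervals cover counting error only, since PCR copies are not independent molecules. Software was scipy 1.17.1, numpy 2.4.6 and pandas 2.3.3 in Python 3.11.15, with matplotlib 3.10.9 for plots. Members, lists and the differences between genes were chosen with earlier results of these data known. Genes named are the members, Mief1, Mief2, the 3 highest and 2 lowest detected of each pathway list and the 2 highest of each marker list; 1 marker each of the satellite glia and Schwann cell lists is not reported here and was left out of the sums. Gm20683, Gm13719, Gm49521, AC140267.1, C430014B12Rik, Wdr90, called list genes and those under the minimum were named after the results were seen. Alternatives left out each replicate and changed scaling, length, pseudocount, filter and adjustment.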

Additional observations from a re-analysis of the deposited data

Results flagged for a closer look

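Mff was flagged because 1 library stood far from the other 3. Replicate 4 reached 69.5 CPM, and its gap to the nearest library was 0.931 of the whole range of the 4 values. The counting interval of replicate 4 was 61.4 to 78.5 CPM and that of replicate 3, the next, reached up to 69.1, so the intervals overlap. Chance flags about 1 in 20 groups of independent values, and 10 genes were examined. Replicates 3 and 4 are counted here as a single sample, and the gap lies between them, so this rate need not hold.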

How the results depend on the processing

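Of 145 recomputed differences between genes, 139 kept their direction and 6 turned, all under another length: Rhot1 minus Rhot2 (-0.58) and Dnm1l minus Mff (-0.02) with the median coding length, Trak1 minus Trak2 (-0.31), Mff minus Fis1 (-1.08) and Mief1 minus Mief2 (-1.19) over the union of exons, and Opa1 minus Mfn2 (0.05) without length. The length alone differs between these settings, and where the reads lie along the transcripts was not examined. Other scalings, pseudocounts of 1 and 0.01 and single libraries left out could turn none, since each difference had 1 sign in all 4 libraries. Their share of the 139 is therefore no sign of stability. Only another length, or adding Gm20683 to Rhot2, could turn a direction. With the median coding length 2 turned and 10 kept, over the union of exons 3 and 9, and without length 1 and 11. Adding Gm20683 to Rhot2 turned none (0.80), an alternative chosen after seeing the data. Scaling to nuclear coding reads raised every level by a factor common to a library, and the median of the 10 genes from 5.05 to 5.41. No member was called between libraries under any of the 10 alternatives, with the smallest adjusted p of a member at 0.295 or more; all genes called numbered 1174, 465 with Bonferroni adjustment, and 768 to 1039 with 1 replicate left out (768 without replicate 4). The fewest reads, 221 for Trak2, limit what could be seen. No paired analysis was possible because there is 1 group, so groups could not be paired by replicate number; genes were compared within libraries.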
